A study of Mus musculus with 1507 samples.

Results

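The kinesin motor genes are described here across all single-cell and library groups of the study. They were taken as every protein-coding gene of the deposited gene models whose symbol is Kif or Kifc followed by a digit, which gave 42 of 47643 genes, or of 21971 protein-coding genes. By their known roles, 13 were listed as mitotic, 15 as transport motors and 13 as signalling, ciliary and microtubule-end kinesins. Kif2a and Kif2b, which take microtubule ends apart and are also known from the spindle, were placed in the third of these classes, all of which were made with earlier results of these data known. The remaining gene, Kif1bp, meets the rule by its symbol only, since it encodes a protein that binds kinesins and is not a motor, and it was left unclassified.

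All samples came from the mouse ES cell line 5G6GR, which was made from EB5 ES cells by random integration of a vector for Gata6 fused to the glucocorticoid receptor, with a puromycin resistance gene. ES cells were kept without feeders on gelatin in serum with leukemia inhibitory factor, puromycin and blasticidin, and in the cultures for primitive endoderm (PrE) dexamethasone, which activates the fusion protein, took the place of blasticidin for up to 72 h. Cells sorted by DNA content, stained with a Hoechst dye, into G1 (93 cells), S (91) or G2/M (93), and cells of all phases at 0 h (92 cells), 12 h (91), 24 h (93), 48 h (87) and 72 h (93) of dexamethasone, were sequenced by RamDA-seq, a full-length total RNA method. Beside them were 9 wells of pooled G1 lysate, 9 wells of 10 pg of purified ES RNA, 16 ES and 39 PrE cells of 1 chip of the C1 system (C1-RamDA-seq), and 384 ES and PrE cells on 4 plates named B1, B2, E1 and E2. For the plates the paper used a modified RamDA-seq protocol, which it calls advanced. Libraries from RNA of ES cells were made from 10 pg by RamDA-seq (n = 3), C1-RamDA-seq (n = 4) and SMART-Seq v4 (n = 4), and from 1 µg after depletion of rRNA (rdRNA-seq, n = 3) or selection of poly(A) RNA (paRNA-seq, n = 3). The induced line is 1 transgenic line, and every PrE cell carries the forced Gata6 fusion and has seen dexamethasone, so that these cannot be told apart from the change of cell type.

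Kinesins are ATP-driven motors that walk along microtubules, or in some families take microtubule ends apart. Mitotic members build the spindle, move chromosomes and complete cytokinesis, and their genes are known to be switched on towards mitosis through promoter elements named the CHR (cell cycle genes homology region) and the CCAAT box. Transport members carry vesicles, organelles and ciliary cargo in cells of every phase, and several are best known from neurons.

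Expression is given as TPM, the share of transcripts in a library scaled to a fixed total, summed over the transcripts of a gene, which is a level per length. Each cell had 19656 to 44634 transcripts at or above 0.1 TPM among the sorted phases and times, and 26787 to 34820 on the C1 chip. On the plates 27 of 384 cells had few such transcripts for their plate and type, and plate values are therefore given with and without these cells. The libraries from RNA held 5706348 to 8962909.9 estimated counts. In PrE cells of the plates 11 of 12 PrE markers were higher and 8 of 10 ES cell markers lower than in ES cells. Over all plate cells 34.7% of 16202 genes were higher and 24.4% lower. The summed TPM of PrE markers was 129.7 to 605.2 over single ES cells and 5841 to 16975 over single PrE cells, cells of few transcripts left out. Sums of the 10 ES cell markers overlapped, with 1170.3 to 6577.8 TPM over ES cells and 286.2 to 5253.1 TPM over PrE cells. The 15 markers of other cell types summed to 0 to 55.1 TPM over the same cells.

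Promoter sequences of RefSeq (GRCm38.p6) were at hand for 33 members in 37 windows of 300 bases, each from 250 bases before to 50 bases after an annotated start. Kif13b, Kif19a, Kif1bp, Kif20a, Kif21b, Kif5a, Kif5b, Kifc2 and Kifc3 had none. Each window was searched on both strands for the CHR, spelled TTTGAA, which reads TTCAAA when it lies on the opposite strand. The same was done for the CCAAT box, spelled CCAAT and read as ATTGG on the opposite strand, and the 2 words can overlap by at most 1 base.

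The stretches from 60 bases before to 25 bases after the start of 6 mitotic genes are shown first, since their levels differed between phases and both words stand within them. They lie at chr19:37376322-37376406 (plus strand, Kif11), chr7:127042396-127042480 (minus strand, Kif22), chrX:100626005-100626089 (plus strand, Kif4), chr9:61946775-61946859 (minus strand, Kif23), chr11:102925100-102925184 (minus strand, Kif18b) and chr17:33890609-33890693 (minus strand, Kifc1). Capitals mark either word, on either strand, and sequences run 5′ to 3′ along the gene's strand.
Kif11: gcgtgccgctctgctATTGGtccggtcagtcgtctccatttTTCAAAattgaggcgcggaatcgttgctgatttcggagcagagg
Kif22: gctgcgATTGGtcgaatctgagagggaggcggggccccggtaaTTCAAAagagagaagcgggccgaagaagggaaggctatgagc
Kif4: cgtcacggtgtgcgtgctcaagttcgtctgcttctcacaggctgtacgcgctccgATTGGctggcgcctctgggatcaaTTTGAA
Kif23: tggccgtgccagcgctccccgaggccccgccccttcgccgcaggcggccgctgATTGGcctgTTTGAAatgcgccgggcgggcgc
Kif18b: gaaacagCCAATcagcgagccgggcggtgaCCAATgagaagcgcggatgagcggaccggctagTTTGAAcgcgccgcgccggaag
Kifc1: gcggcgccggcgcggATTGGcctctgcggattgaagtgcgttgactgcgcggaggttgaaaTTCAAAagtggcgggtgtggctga
For contrast, the same stretch is shown for Kif18a (chr2:109280678-109280762, plus strand), the mitotic gene without a CHR, and for the transport genes Kif1c (chr11:70700488-70700572, plus strand), Kif3b (chr2:153291356-153291440, plus strand) and Kif3a (chr11:53567309-53567393, plus strand).
Kif18a: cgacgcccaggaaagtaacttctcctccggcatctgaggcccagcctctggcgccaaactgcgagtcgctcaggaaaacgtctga
Kif1c: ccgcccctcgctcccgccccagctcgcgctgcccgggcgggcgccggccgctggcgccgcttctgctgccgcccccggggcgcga
Kif3b: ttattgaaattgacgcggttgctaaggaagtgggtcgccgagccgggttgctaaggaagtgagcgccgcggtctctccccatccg
Kif3a: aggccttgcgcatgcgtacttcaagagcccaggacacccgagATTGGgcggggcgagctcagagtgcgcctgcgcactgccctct

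The CHR was in the windows of 11 of 12 mitotic genes (91.67%), in 1 of 12 transport windows (8.333%, Kif1a) and in 2 of 13 windows of the third class (15.38%, Kif26b and Kif27). Of all 32851 promoter windows, 17.89% held it. The CCAAT box was in 8 of 12 mitotic windows (66.67%), 4 of 12 transport windows (33.33%) and 5 of 13 windows of the third class (38.46%), against 37.41% of all windows. Both words were in the same window for 8 mitotic genes (66.67%), no transport gene, 2 windows of the third class (15.38%) and 6.953% of all windows. Within 30 bases of the start, a span chosen after the positions were seen, the CHR was in 9 of 12 mitotic windows (75%), in none of 12 transport windows, in 1 of 13 of the third class (7.692%) and in 3.187% of all. With Kif2a and Kif2b counted as mitotic, a choice made after seeing the data, 11 of 15 windows held the CHR. A match is a run of letters and does not show that a factor binds there.

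**Figure D1:**
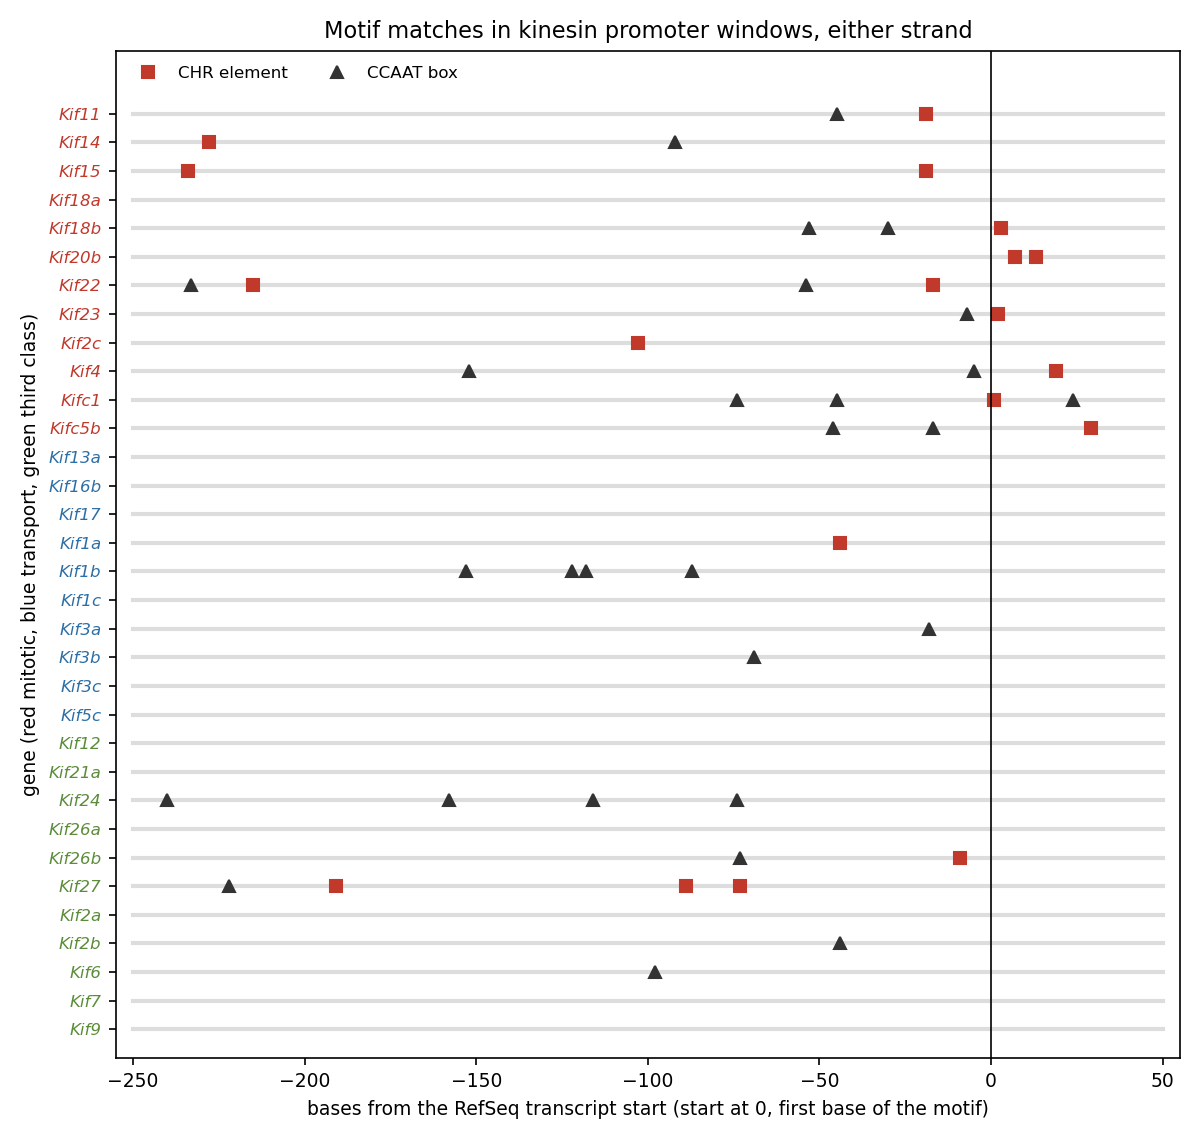
Position of the CHR (TTTGAA) and the CCAAT box relative to the annotated start, in bases along the gene's strand, for each member with a RefSeq promoter window; each line is a gene, with all of its windows drawn on it, and colours mark the motif. The CHR stands within 30 bases of the start, a span chosen after the positions were seen, in 9 of 12 mitotic windows and in no transport window. It does so in 1 of 13 windows of the third class and in 3.187% of all windows.

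The phase groups ask how the level of each motor differed along the cell cycle of ES cells. Mitotic kinesins were higher in G2/M than in G1 cells, by at least 2-fold for 12 of 13, where 1.08% of 16581 genes were that much higher and 0.0965% that much lower. By means over cells, none of 14 transport and none of 7 other kinesins with a mean of at least 1 TPM over the groups was 2-fold higher or lower. With Kif2a and Kif2b counted as mitotic, 12 of 14 above that mean were higher. In the transport class Kif17 did not reach that mean, and in the third class 6 of 13 did not. With medians over cells in place of means 14 members were 2-fold higher in G2/M than in G1, where 2.297% of genes were. Among them were Kif9 of the third class and the mitotic Kifc5b. The median log2 difference, on the log2(TPM + 1) scale used throughout, was 1.62 for mitotic kinesins (0.91 to 2.21), 0.17 for transport kinesins (−0.27 to 0.35), 0.19 for the third class (−0.22 to 0.57) and 0.106 for all genes. Each phase was 1 sort, so that no test was run, SDs are over cells, and a phase cannot be told apart from its sort.

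Among motors that build the spindle, Kif11, which slides antiparallel microtubules apart to separate the poles, had the largest difference. Its level was 0 to 46 TPM over G1 cells with a median of 5.52, 3.1 to 69.9 TPM over S cells with a median of 36.3, and 0.771 to 92.6 TPM over G2/M cells with a median of 51.9. The mean rose from 10.5 ± 10.6 TPM in G1 (SD over cells) to 36.7 ± 10.5 in S and 52.2 ± 16.1 in G2/M, 4.62-fold over G1. The ranges overlapped, since some G1 cells were as high as most S cells and at least 1 G2/M cell was near 0. Kif15, which can keep a spindle bipolar beside Kif11, reached its full level by S phase. It measured 11.9 ± 8.94 TPM in G1, 25.6 ± 7.52 in S and 25.8 ± 7.02 in G2/M, and was 1.01-fold in G2/M over S. Kifc1, a minus-end motor that draws spindle poles together, was at 22.9 ± 14.8, 33.8 ± 14.7 and 57.3 ± 21.7 TPM. Kifc5b, a near-identical copy of Kifc1 whose reads could be split between both genes, was at 4.08 ± 2.99, 6.67 ± 4.34 and 8.57 ± 3.96 TPM. By means Kifc5b was the mitotic member below 2-fold in G2/M over G1, at 1.88-fold.

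Motors that act on microtubule ends and chromosomes were higher at each step from G1 over S to G2/M. Kif18a, which walks to the plus ends of kinetochore fibres and damps chromosome movement, had a median of 5.08 TPM over G1 cells (0.0742 to 32.1), 13 TPM over S cells (2.33 to 35.5) and 32.3 TPM over G2/M cells (1.82 to 55). It was 4.22-fold higher in G2/M than in G1 and 2.23-fold higher than in S. Its relative Kif18b, which works on astral microtubules, was at 6.98 ± 6.47, 14.1 ± 7.89 and 29.6 ± 13.4 TPM in G1, S and G2/M, 3.84-fold over G1. Kif2c, which takes microtubules apart at centromeres to correct faulty attachments, was at 11.8 ± 10.8, 23.8 ± 8.78 and 41 ± 17.2 TPM, 3.29-fold over G1. The chromosome-bound motors Kif4 and Kif22 had 8.19 ± 7.8, 12 ± 6.14 and 24.8 ± 8.91 TPM (2.81-fold) and 33.3 ± 19.1, 49.7 ± 20.8 and 86.1 ± 28.6 TPM (2.54-fold). Kif22 had the highest mean of the mitotic class in all 3 phases.

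Motors of the central spindle and cytokinesis were also highest in G2/M cells. Kif23, the motor of the centralspindlin complex, had a median of 6.02 TPM over G1 cells (0.318 to 47.2), 9.79 TPM over S cells (1.22 to 45.1) and 35.9 TPM over G2/M cells (1.75 to 75.5). The S mean was 1.15-fold that of G1, and the G2/M mean was 2.98-fold that of S, the widest step between S and G2/M among members. Kif20a, which brings the chromosomal passenger complex to the midzone, had medians of 6.39 (0 to 59.5), 14.7 (3.61 to 51.1) and 35.2 TPM (2.52 to 79.8), and was 2.22-fold higher in G2/M than in S. Kif20b, a motor of late cytokinesis, was at 8.95 ± 5.95, 13.9 ± 4.66 and 23.5 ± 8.16 TPM, 2.46-fold in G2/M over G1. Kif14, which holds citron kinase at the midbody, was at 8.83 ± 8.63, 18.6 ± 12.8 and 30.2 ± 14.8 TPM, 3.18-fold in G2/M over G1. It was the mitotic kinesin found at 1 TPM or more in the smallest share of G1 cells, 77 of 93 (82.8%, exact binomial 95% interval 73.6 to 89.8), and in S it was so in all 91 cells.

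Between S and G1 only Kif11 (3.27-fold) and Kif15 (2.05-fold) were at least 2-fold higher, where 0.537% of all genes were that much higher and 0.332% that much lower. With medians over cells in place of means 8 members passed, among them Kif9 of the third class, where 1.665% of genes did. With protein_coding transcripts alone 4 did, where 0.3759% of genes did. By means, Kif18b, Kif18a, Kif2c and Kif14 lay just inside the limit at 1.89 to 1.99-fold. Between G2/M and S, Kif18a, Kif18b (2.03-fold), Kif20a and Kif23 were at least 2-fold higher, where 0.694% of all genes were that much higher and 0.283% that much lower, and Kif4 was at 1.996-fold. No member was 2-fold lower in any pair of phases.

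**Figure D2:**
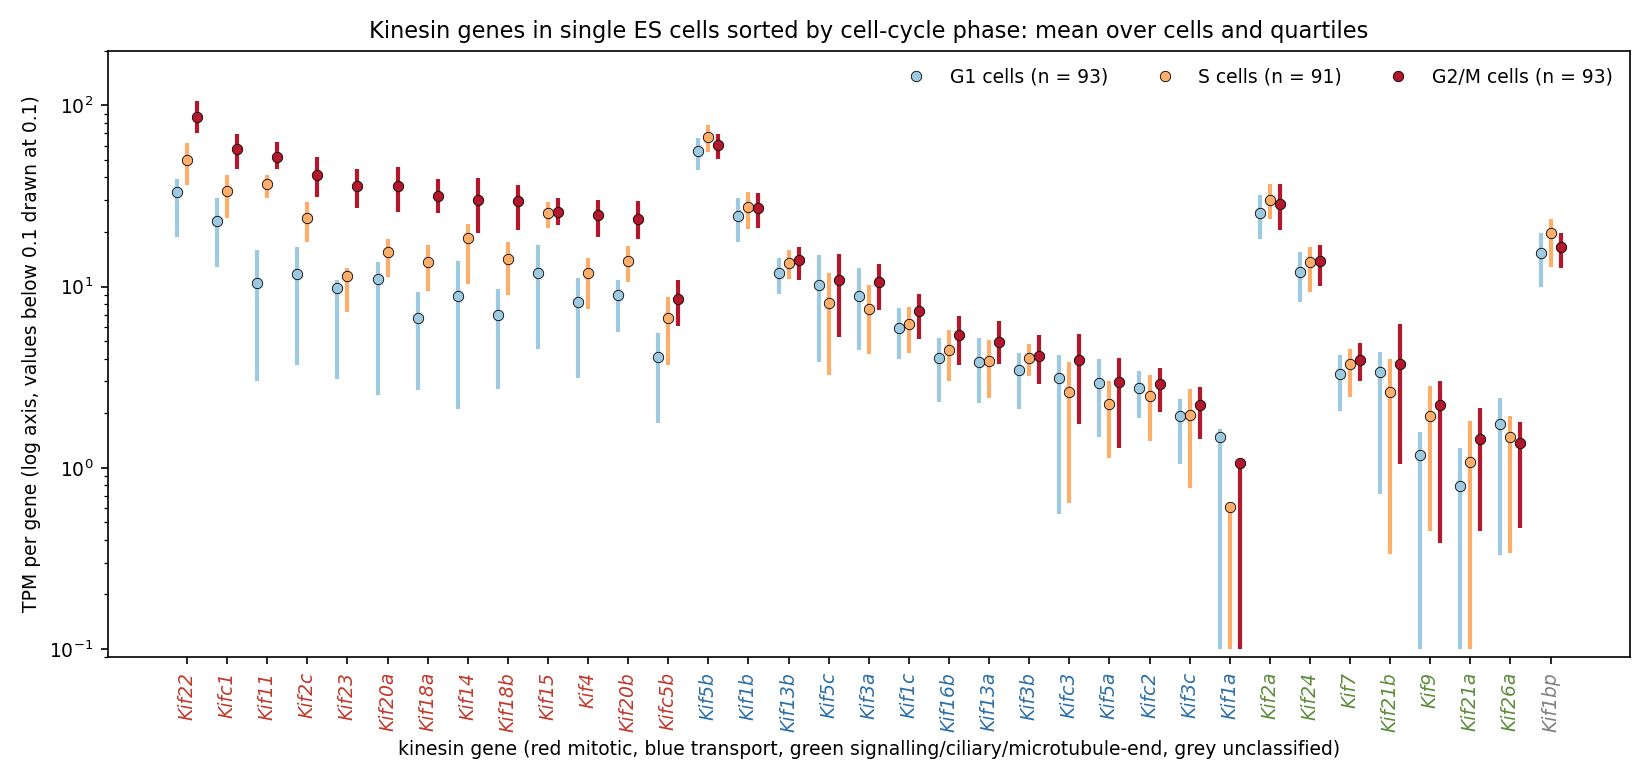
TPM of the 35 kinesin genes above the filter in G1, S and G2/M cells, on a log axis with values under 0.1 drawn at 0.1. Points are means over cells, bars run between the quartiles, and label colours mark the class. Mitotic members climb from G1 to G2/M, Kif15 levels off in S, and the transport members lie flat.

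Transport kinesins differed less between phases. Kif5b, the widely used heavy chain of conventional kinesin, was the most abundant of all 42 genes in G1 and S, with 56.3 ± 17.1, 67.2 ± 17.3 and 60.7 ± 13.9 TPM in G1, S and G2/M, and was present at 16.9 TPM or more in every cell. Kif1b, a carrier of mitochondria and vesicles, was at 24.7 ± 9, 27.5 ± 10 and 27.1 ± 8.69 TPM. Kif13b was at 11.9, 13.5 and 14 TPM and Kif1c at 5.89, 6.19 and 7.33 TPM, both vesicle carriers. Kif3a and Kif3b, which with Kifap3 form the motor of outward intraflagellar transport, were at 8.83, 7.54 and 10.5 TPM and at 3.47, 4.05 and 4.12 TPM. The neuronal heavy chains Kif5c and Kif5a were at 10.3, 8.07 and 10.9 TPM and at 2.96, 2.25 and 2.96 TPM. The endosome motors Kif16b and Kif13a were at 4.02, 4.46 and 5.41 TPM and at 3.84, 3.9 and 4.94 TPM, and the minus-end motors Kifc3 and Kifc2 at 3.13, 2.63 and 3.95 TPM and at 2.76, 2.48 and 2.88 TPM. Kif16b shares its place with an antisense gene, and as strand was not used in counting, reads of both cannot be told apart. Kif3c lay at 1.92 to 2.22 TPM, and Kif1a, a carrier of synaptic vesicle precursors, at 0.61 to 1.49 TPM with at least 1 TPM in 24 of 93 G1 cells (25.8%, 17.3 to 35.9).

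In the third class, Kif2a, which takes microtubule ends apart, was at 25.5, 30 and 28.4 TPM and Kif24, which holds back cilium formation, at 12, 13.6 and 13.9 TPM. Kif7, which sets hedgehog signalling at the cilium tip, was at 3.28, 3.74 and 3.95 TPM, and Kif21b at 3.38, 2.6 and 3.76 TPM. The low genes Kif9 and Kif21a had higher shares of cells at 1 TPM or more after G1. For Kif9, known from motile cilia, they were 34.4% of G1, 65.9% of S and 63.4% of G2/M cells, and for Kif21a, a motor that restrains microtubule growth, 33.3%, 44% and 63.4%. The median number of detected transcripts also went from 38501 in G1 to 39128 in S and 41258 in G2/M cells, and its part in these shares was not tested. Kif1bp was at 15.3, 19.7 and 16.6 TPM.

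Summed over the class, mitotic kinesins took 155 ± 94.6 TPM of a G1 cell (26.1 to 497, median 122.6), 275 ± 74 TPM of an S cell (82.1 to 546.1, median 258.8) and 482 ± 134 TPM of a G2/M cell (61.2 to 772.4, median 490.7). Transport kinesins took 142 ± 28.6, 153 ± 26.2 and 159 ± 25.4 TPM. Wells of pooled G1 lysate had 145 ± 14.7 TPM of mitotic kinesins (128.5 to 169.6), close to the mean of single G1 cells, and wells of 10 pg of RNA from unsorted ES cells had 263 ± 29.1 TPM (211.9 to 304.7).

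**Figure D3:**
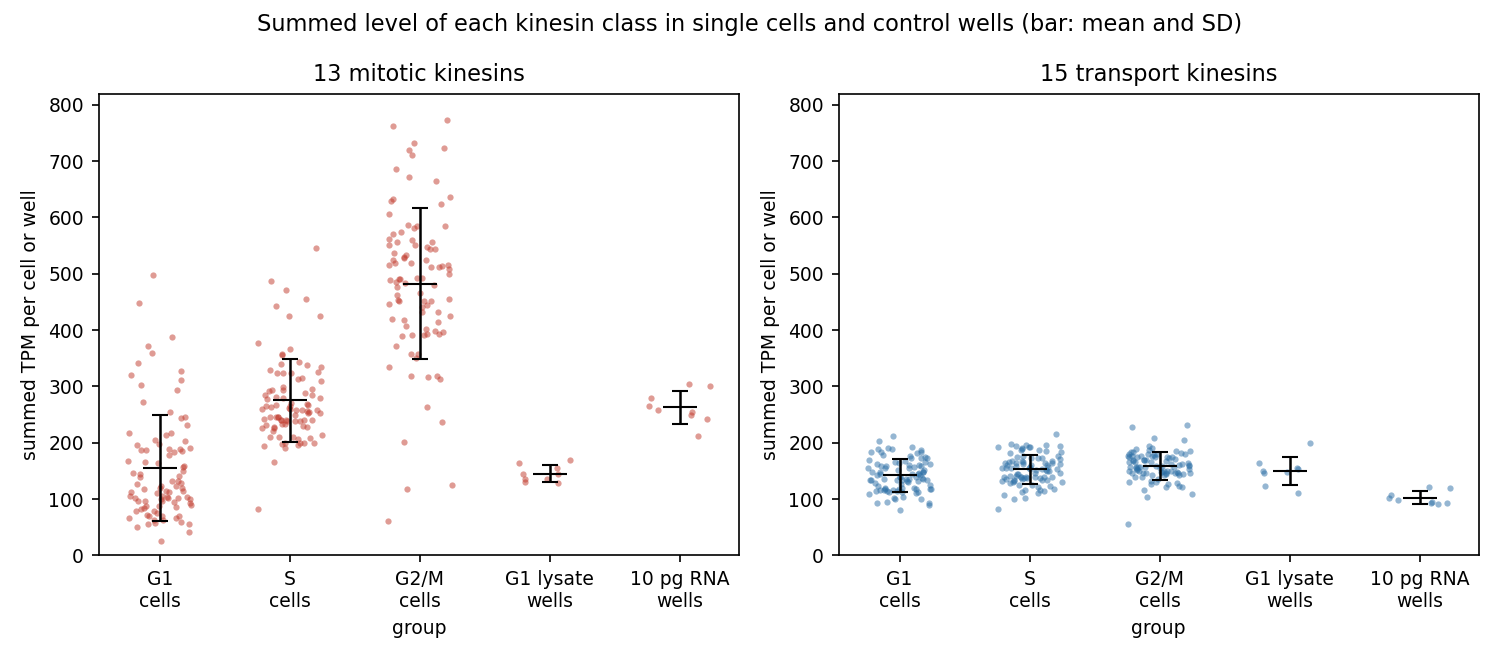
Summed TPM per cell or well of the 13 mitotic and of the 15 transport kinesins in G1, S and G2/M cells, in wells of pooled G1 lysate and in wells of 10 pg of ES RNA; points are single cells or wells and bars are means and SDs. G1 cells spread from 26.1 to 497 TPM of mitotic kinesins, whereas lysate wells lie between 128.5 and 169.6 TPM.

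The wells set the spread of the method beside that between G1 cells. Lysate wells had sums near those of G1 cells (145 against 155 TPM mitotic, 149.5 against 141.8 TPM transport). RNA wells, from unsorted cells, had 263 and 102 TPM, so that their CVs are not taken at the level of G1 cells. The CV of all 13 mitotic kinesins was higher over G1 cells than over either kind of well, as for 60.19% of 13354 genes and for 7 of 13 transport kinesins above the filter. The median CV of mitotic kinesins was 91.84% over G1 cells, 35.04% over lysate wells and 29.51% over RNA wells, and that of transport kinesins was 56.06%, 52.01% and 39.97%. For all genes it was 57.11%, 44.15% and 46.79%.

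Other genes of the same pathways were taken as lists. In G2/M against G1, 1.08% of 16581 genes were at least 2-fold higher and 0.0965% that much lower. Of 16 spindle and cytokinesis partners, 14 were at least 2-fold higher in G2/M than in G1, led by Nusap1 (6.22 to 63.2 TPM) and Prc1 (20.2 to 155.3 TPM), a bundler of midzone microtubules that binds Kif4. Of 15 G2/M genes 14 were, with Ube2c going from 14.1 to 199.6 TPM. Of 11 tubulins 3 were, namely Tuba1c (21.8 to 96.1 TPM), Tubb4b (80.9 to 221.6 TPM) and Tuba1b (224.2 to 456.2 TPM). None of 15 light chains, adaptors and cargo linkers, of 15 dynein and dynactin genes above the filter, of 16 intraflagellar transport genes or of 15 G1/S genes was 2-fold higher or lower. In S against G1, 5 partners and 3 G2/M genes were 2-fold higher, where 0.537% of all genes were. The G2/M list holds genes chosen for their known phase, so that its counts describe the sort only.

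Within a phase, mitotic kinesins varied together from cell to cell. The median Pearson correlation over pairs, on log2(TPM + 1) and over members with a mean of at least 5 TPM, was 0.47 over 93 G1 cells, 0.303 over 91 S cells and 0.608 over 93 G2/M cells. For transport kinesins it was 0.111, 0.092 and 0.126, and between the classes 0.0756, 0.0672 and 0.213. In G2/M cells the pair with the highest value was Kif11 with Kif20b (0.810), and the mitotic genes had a median of 0.333 with the number of detected transcripts, which the cells of a group share as a source of variation. Kif2c, Kif11, Kif14 and Kif18b each had at least 1 TPM in 92 of 93 G2/M cells and in all 91 S cells. The part of such low cells in the correlations was not tested. The correlations are descriptions over cells of 1 sort and carry no test.

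The time course asks how the motors differed over 72 h of dexamethasone. The summed TPM of the 12 PrE markers was 108.6 to 537.9 over cells at 0 h, and 8 of 91 cells at 12 h, 1 of 93 at 24 h, 1 of 87 at 48 h and none of 93 at 72 h lay at or below that highest value. By means over all cells, no mitotic kinesin was 2-fold higher or lower than at 0 h at any time, and the members that were belonged to the transport and other classes. With medians over cells Kif18b was 2-fold higher at 24 h and Kif18a 2-fold lower at 72 h, and Kif18b was also 2-fold higher at 24 h without cells of few transcripts and with the merged gene models. At 12 h none of 32 members was 2-fold higher or lower, where 3.06% of 15961 genes were higher and 4.51% lower. At 24 h Kif7 was lower (0.482-fold) and none was higher, against 9.51% of genes higher and 5.29% lower. At 48 h Kif1c (2.46-fold) and Kif21a (3.47-fold) were higher and Kif7 (0.43-fold) lower, against 13.4% and 9.17%, and at 72 h Kif1c (2.93-fold) and Kif21a (5.9-fold) were higher and Kif13b (0.401-fold) and Kifc3 (0.388-fold) lower, against 13.5% and 11.7%. By means, the members' shares were thus at or below those of all genes. All times share the 0 h cells, each time was 1 culture without a replicate, and no test was run.

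Kif1c, a vesicle motor of the same family as Kif1b, was at 5.88 ± 2.66, 5.01 ± 2.82, 8.41 ± 3.28, 15.9 ± 6.33 and 19.1 ± 7.71 TPM at 0, 12, 24, 48 and 72 h, so that it dipped at 12 h before it climbed. Kif21a was at 0.325 ± 0.459, 0.485 ± 0.798, 1.33 ± 1.34, 3.59 ± 2.43 and 6.81 ± 5.11 TPM. The share of cells with at least 1 TPM of Kif21a went from 8.7% at 0 h over 13.2%, 47.3% and 82.8% to 96.8% at 72 h. The 0 h mean of Kif21a lay below those of sorted G1, S and G2/M cells (0.797, 1.07 and 1.44 TPM). It was also below that of ES cells on the C1 chip (0.684 TPM), and above those of ES cells on the plates. Cells on the chip and the plates were prepared by other protocols than cells at 0 h. The median number of detected transcripts was 39712.5 at 0 h, 31868.5 in C1 ES cells and 28670.5 to 29066 in ES cells of the plates. The part of protocol and detection in these levels was not tested. In the merged gene models Kif1c was again 2-fold higher at 48 h and 72 h, where 14.49% and 14.1% of genes were. Kif21a was at a mean of 0.859 TPM over the times there, under the filter, with a log2 difference of 0.84 at 48 h and 1.5 at 72 h.

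Members that fell did so at different times. Kif13b went from 12.5 ± 3.91 TPM at 0 h to 8.46 ± 6.16 at 12 h, 7.92 ± 4.7 at 24 h, 6.67 ± 7.63 at 48 h and 4.42 ± 2.31 at 72 h. Kifc3 was first higher, with 8.73 ± 5.54 TPM at 0 h and 15.2 ± 7.94 at 12 h, and was then at 7.02 ± 6.97, 4.55 ± 6.82 and 2.77 ± 2.97 TPM. Other ES cells had lower means of Kifc3, with 3.13, 2.63 and 3.95 TPM in sorted G1, S and G2/M cells and 6.75 TPM on the C1 chip. The size of its fall thus depends on which ES cells it is set against. Kif7 was at 3.08, 2.14, 0.967, 0.754 and 1.06 TPM, and Kifc2 at 2.09, 3.26, 2.18, 0.870 and 0.613 TPM. In the merged gene models Kif7 was under the filter, with log2 differences of −0.77 at 24 h and −0.95 at 48 h, so that its calls at both times were lost. Kif5a, whose mean over the times stayed under 1 TPM, had at least 1 TPM in 75% of cells at 0 h and in 14.3% at 12 h. With medians over cells Kif13b, Kif18a, Kif5c, Kif7, Kifc2 and Kifc3 were 2-fold lower at 72 h, where 14.16% of genes were, and with the merged gene models Kif13b was, where 10.72% of genes were, while Kifc3 was at a log2 difference of −0.65.

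**Figure D4:**
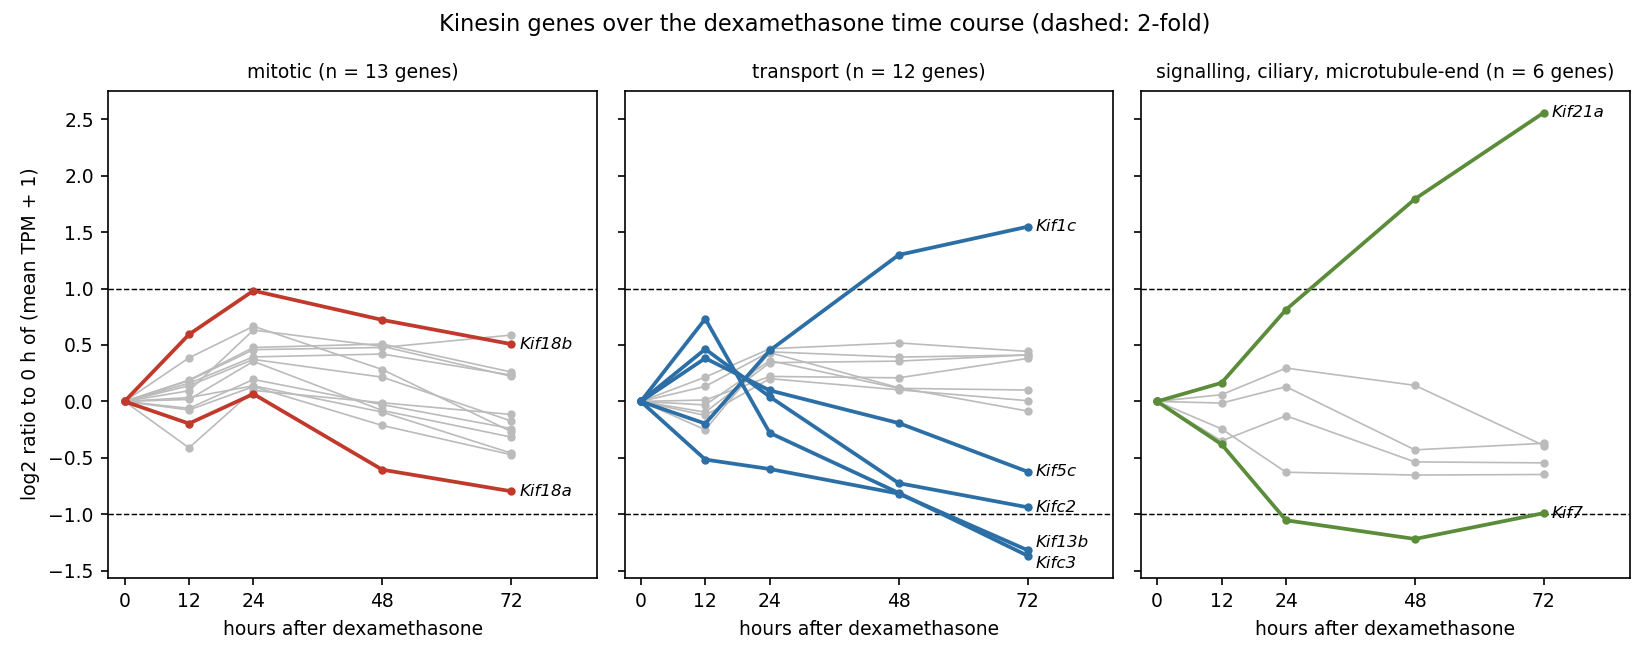
Mean TPM of kinesins at 0, 12, 24, 48 and 72 h of dexamethasone as log2 difference of (mean + 1) from 0 h, a line for each gene, with a panel for each class and dashed lines at 2-fold. Kif21a and Kif1c end 5.9 and 2.93-fold higher, Kif13b and Kifc3 end at 0.401 and 0.388-fold, below the lower dashed line, and mitotic lines, drawn from means, stay within 2-fold.

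The sum of mitotic kinesins was 269 ± 89.9 TPM at 0 h, 285 ± 126 at 12 h, 350 ± 138 at 24 h, 299 ± 127 at 48 h and 248 ± 142 at 72 h, and that of transport kinesins 123, 127, 141, 136 and 139 TPM. At 24 h all 13 mitotic means were above those at 0 h, by 1.05 to 1.97-fold, where the median log2 difference of all genes was 0.195. The share of all genes above their 0 h mean was not counted. Median log2 differences were 0.372 for mitotic kinesins, 0.283 for transport kinesins and 0.0017 for the third class. They were 0.458 for light chains, adaptors and cargo linkers, 0.384 for dynein and dynactin and 0.0373 for intraflagellar transport, so that the rise was not particular to mitotic kinesins. Of the 13, Kif18b was highest in relative terms, from 12.1 ± 8.36 TPM at 0 h to 24.9 ± 15.4 at 24 h, followed by Kif20a, from 24.7 ± 12.1 to 39.8 ± 18.2. Kif18a went the other way after 24 h, with 13.3, 11.5, 14, 8.4 and 7.23 TPM at the 5 times. Of genes under 1 TPM on average, Kif12 was listed at 0 in all 92 cells at 0 h (exact 95% interval 0 to 3.93%) and had at least 1 TPM in 24 of 87 cells at 48 h and 13 of 93 at 72 h. Kif26b had at least 1 TPM in 5.43% of cells at 0 h and 29% at 72 h.

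On the C1 chip, PrE cells differed from ES cells in the same direction for the leading members. Kif1c was at 6.58 ± 3.89 TPM over 16 ES cells (0.719 to 15.2, median 6.23) and 26.3 ± 14.1 over 39 PrE cells (5.26 to 60.9, median 23.9), 3.6-fold, and Kif21a was at 0.684 ± 0.941 and 7.35 ± 4.62 TPM, 4.96-fold. Both were higher, where 17.3% of 15992 genes were, and Kif5a (0.364-fold), Kifc2 (0.385-fold), Kif13b (0.411-fold) and Kifc3 (0.499-fold) were lower, where 12.2% were, among 32 members. No mitotic kinesin was 2-fold apart. Kif23 (30.7 ± 11 against 58.5 ± 29.4 TPM), Kif18b (26.5 ± 13.2 against 46.5 ± 27.3) and Kifc5b (3.16 ± 1.71 against 6.88 ± 5.8) were 1.88, 1.73 and 1.9-fold, while Kif18a (13.9 ± 8.29 against 8.79 ± 6.6 TPM) and Kif22 (77.5 ± 24.5 against 51.8 ± 30.2 TPM) were 0.655 and 0.673-fold. The mitotic sum was 354 ± 92.3 TPM in ES and 362 ± 154 TPM in PrE cells. Both cell types shared 1 chip, so that no test was run.

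The 4 plates, each with ES and PrE cells, gave the comparison with replicates. The labels do not tie the plates to separate cultures or inductions, so that p-values over plates may measure the spread of plates and of the cells drawn only. With limma on plate means, 11 of 33 members were higher and 6 lower in PrE cells at an adjusted p under 0.05, where 34.7% of 16202 genes were higher and 24.4% lower. The mitotic class had 5 higher and 1 lower of 13 (median log2 difference 0.09), the transport class 4 higher and 3 lower of 13 (0.12), the third class 1 higher and 2 lower of 6 (−0.11), and the median of all genes was 0.092. Without cells of few detected transcripts 12 members were higher, where 36% of 16459 genes were, and 7 lower, where 29% were. With these cells left out and the plate as a block 10 members were lower, where 30.33% of genes were, the further ones being Kif11, Kif5c and Kif24.

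In the mitotic class, Kif23, Kif18b, Kifc5b, Kifc1 and Kif4 were higher in PrE cells. Plate means of Kif23 were 7.29, 8.54, 10.4 and 9.17 TPM in ES cells and 22.6, 20.4, 31.5 and 28.1 TPM in PrE cells on B1, B2, E1 and E2, a log2 difference of 1.43 ± 0.15 (SE, limma adjusted p = 4.98e-05). Those of Kif18b were 16, 16.1, 16.4 and 15.5 against 41.3, 33.2, 44.3 and 46.5 TPM (1.31 ± 0.11, p = 8.84e-06), and 1.14 without cells of few transcripts, where E2 had 33 TPM in PrE. ES and PrE plate means of both genes did not overlap, and the share of all genes for which this held was not counted. Kifc1 was at 30.2, 30.9, 35.1 and 33.4 against 62.2, 54.4, 72.6 and 59.3 TPM (0.91 ± 0.10, p = 6.49e-05), and its copy Kifc5b at 1.13 ± 0.13 (p = 6.22e-05). Kif4 rose less, from 6.28, 5.62, 7.25 and 6.67 to 8.75, 8.36, 11.7 and 10.7 TPM (0.54 ± 0.12, p = 0.00476).

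Kif18a was the mitotic kinesin that was lower, with 6.7, 7.86, 10.5 and 9.43 TPM in ES cells and 3.52, 3.3, 6.01 and 4.4 TPM in PrE cells (−0.87 ± 0.18, p = 0.00316). The highest PrE plate mean was below the lowest ES plate mean, and the share of all genes for which this held was not counted. Kif22 was not called over all cells (−0.07, p = 0.783) and was lower without cells of few transcripts (−0.30 ± 0.10, p = 0.0255), where its PrE mean on E2 went from 59.8 to 36.6 TPM. Kif11 (−0.27, p = 0.227) and Kif20a (0.21, p = 0.0962) were called only with the plate as a block (p = 0.0451 and 0.0233), and Kif20a was again not called with the block when cells of few transcripts were left out (p = 0.0597). Kif2c, Kif14, Kif15 and Kif20b had log2 differences of −0.11 to 0.09 and were not called.

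Among transport kinesins, Kif1c had the widest difference. Over all cells its plate means were 4.86, 51.7, 4.33 and 5.53 TPM in ES and 34.2, 32.5, 37 and 30.5 TPM in PrE cells (1.76 ± 0.67, p = 0.0494, and p = 0.0594 with the plate as a block). The ES mean on B2 rested on a cell of 69 detected transcripts with 2284 TPM, 90.1% of the sum, and was 5.23 TPM without that cell. Without cells of few transcripts the ES means were 5.4, 6.27, 4.44 and 5.53 TPM, the PrE means 35.1, 37.1, 38.3 and 31.4 TPM, and the log2 difference 2.51 ± 0.10 (p = 2.96e-08). Over all cells the call was lost without plate B1 (p = 0.174), E1 (p = 0.197) or E2 (p = 0.164).

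Kif1b (0.46 ± 0.12, p = 0.00801), Kif3b (0.51 ± 0.11, p = 0.00381) and Kif3c (0.62 ± 0.09, p = 0.00033) were also higher in PrE cells, Kif3c with 1.12, 0.975, 0.962 and 1.08 TPM in ES against 2.15, 1.86, 2.27 and 2.21 TPM in PrE cells. Kif13b (6.66, 5.79, 8.22 and 7.51 against 3.99, 3.66, 3.99 and 3.85 TPM, −0.71 ± 0.11, p = 0.000392), Kifc3 (−0.80 ± 0.13, p = 0.000792) and Kifc2 (−1.10 ± 0.14, p = 0.000141) were lower. Kif13a, at a PrE mean of 35.4 TPM on B2, had a cell of 58 detected transcripts with 1430 TPM. It was not called over all cells (p = 0.169) and was higher without cells of few transcripts (0.27 ± 0.09, p = 0.0252). Kif5b, Kif5c, Kif3a, Kif16b and Kif1a were not called over all cells, with Kif5b at 39.4, 37, 43.4 and 41.9 TPM in ES and 41, 43.5, 59 and 47.7 TPM in PrE cells (0.23 ± 0.12, p = 0.134). Kif5a, below the filter, was at 1.73, 1.13, 1.57 and 1.5 against 0.310, 0.251, 0.177 and 0.197 TPM, and was lower when no filter was used (p = 0.000106).

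In the third class Kif21a had the firmest difference over all cells, with 0.196, 0.219, 0.181 and 0.241 TPM in ES and 4.23, 3.97, 5.09 and 4.36 TPM in PrE cells (2.16 ± 0.10, p = 1.93e-07). Kif7 (2.89, 2.49, 3.42 and 3.31 against 1.23, 0.611, 0.932 and 1.03 TPM, −1.05 ± 0.13, p = 0.000126) and Kif26a, a member thought to lack motor activity (−0.77 ± 0.14, p = 0.00127), were lower. Kif21b was not called (p = 0.496), with a PrE mean of 18.3 TPM on B1 of which 1 cell with 513.6 TPM held 73.69%. Kif12 was listed at 0 in ES cells of every plate and at 0.459, 0.584, 0.637 and 0.733 TPM in PrE cells. The unclassified Kif1bp was higher (0.53 ± 0.09, p = 0.000708). Kif1c and Kif21a had the widest positive differences of the members above the filter at 72 h, on the chip and on the plates without cells of few transcripts.

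**Figure D5:**
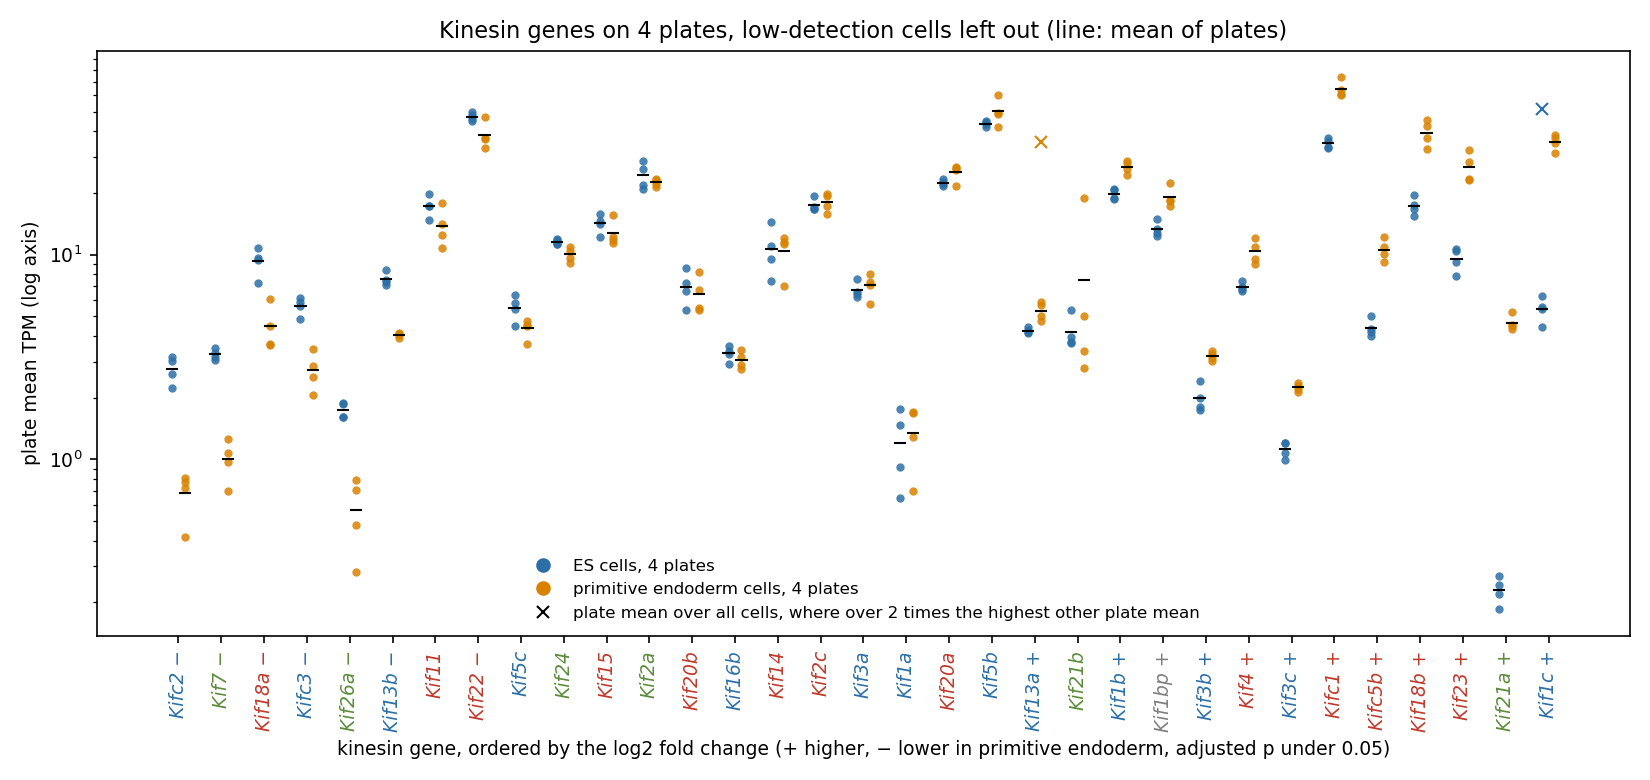
Plate means of TPM for members with at least 1 TPM in ES and PrE cells on 4 plates, without cells of few detected transcripts, on a log axis; points are plates, lines are their means, and crosses mark means over all cells that lie more than 2 times above the highest point. Kif1c, Kif21a, Kif23 and Kif18b are among the members whose 4 PrE means lie above all 4 ES means, and Kif18a, Kif13b, Kif7 and Kifc2 among those below them. The share of all genes that separate in this way was not counted.

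Counts of other lists on the plates stand beside the 34.7% of all genes that were higher and the 24.4% that were lower, and no list was tested against them. Of 15 G1/S genes 8 were lower and 1 higher in PrE cells, with Mcm6 at −1.37, and of 15 G2/M genes 4 were higher and 2 lower. Of 16 spindle and cytokinesis partners 7 were higher and 2 lower, among them the Kif14 partner Cit (1.06 ± 0.10, p = 1.6e-05) and Nusap1 (−0.92 ± 0.18, p = 0.00193). The summed mitotic kinesins, without cells of few transcripts, were 201.4, 223.9, 235.6 and 213.8 TPM in ES and 270.9, 254.7, 329 and 273 TPM in PrE cells. The part of cycle phase in the differences above was not tested, since the plates hold cells of all phases.

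Of 14 light chains, adaptors and cargo linkers 8 were higher and 3 lower, with the kinesin light chain Klc1 at 1.04 ± 0.08 (p = 6.02e-06), Fez2 at 1.91 ± 0.14 (p = 3.49e-06) and its relative Fez1 at −1.51 ± 0.14 (p = 1.83e-05). Of 15 dynein and dynactin genes 9 were higher and none lower, with Dynlt3 at 1.37 ± 0.11 (p = 5.67e-06). Of 16 intraflagellar transport genes 4 were higher and 7 lower, with Ift172 at −1.28 ± 0.12 (p = 2.54e-05), and of 11 tubulins 4 were higher and 3 lower, with Tubb6 at 3.29 ± 0.09 (p = 1.3e-08) and Tubb2b at −2.54 ± 0.13 (p = 5.6e-07).

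Mitotic kinesins varied together in the time course and on the plates too. Over pairs the median correlation was 0.475 at 0 h, 0.685 at 12 h, 0.585 at 24 h, 0.518 at 48 h and 0.635 at 72 h, and 0.558 and 0.588 over ES and PrE cells of the plates without cells of few transcripts. For transport kinesins it was 0.062, 0.416, 0.0659, 0.217 and 0.322 at the 5 times. Mitotic genes had medians of 0.272, 0.531, 0.525, 0.226 and 0.0139 with the number of detected transcripts, whose part in these values was not tested.

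From 10 pg of ES RNA, RamDA-seq was compared with SMART-Seq v4, which primes at the poly(A) tail, with edgeR on estimated counts. In libraries from RNA of many cells, fewer cells that express a kinesin and less of its RNA per cell cannot be told apart. Of 30 members tested 2 were higher and 1 lower by RamDA-seq, where 7.43% of 12566 genes were higher and 6.62% lower. Kif22 was lower, with 387, 466 and 403 estimated counts in RamDA-seq and 2360, 2293, 2182 and 1879 in SMART-Seq v4 (log2 difference −1.10 ± 0.18, p = 0.00935). Kif21b had 112, 52 and 29 estimated counts in RamDA-seq and 0 in all 4 SMART-Seq v4 libraries, at least 32.9-fold higher with a floor of 3 counts per library (p = 0.0231), and Kif26a 29, 42 and 106 against 0, at least 30.1-fold (p = 0.0229). These 3 calls were lost when single RamDA-seq libraries were left out, 0 members being higher without any of them and 0 lower without the first or the third. Libraries of SMART-Seq v4 listed 4 to 10 of 15 transport kinesins and 0 to 2 of 13 mitotic kinesins at 0, and those of RamDA-seq 1 to 2 and 0. The share of all genes at 0 in these libraries was not counted. Some transport members were low, such as Kif17 at 0.463 TPM in sorted G1 cells, and the part of level in these counts was not tested. Summed per-length TPM of mitotic kinesins were 401 ± 11.6 by RamDA-seq, 376 ± 5.61 by C1-RamDA-seq and 546 ± 23.5 by SMART-Seq v4. Transport kinesins had lower sums, 163 ± 18.9, 155 ± 13.3 and 131 ± 37.2. The labels name no separate cultures for these libraries or those of 1 µg, so that p-values here may measure technical spread only.

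From 1 µg, rdRNA-seq was compared with paRNA-seq. After TMM scaling 9 of 36 members were higher and 15 lower in rdRNA-seq, where 23.8% of 14347 genes were higher and 26% lower. Kifc1 was lower, with 408, 423.3 and 414.8 estimated counts against 1091, 1045 and 1081 (−0.79 ± 0.05, p = 8.06e-08), as were Kif18b (−0.60 ± 0.06, p = 5.31e-06), Kif13b, with 282, 257 and 272 against 644, 658 and 610 counts (−0.66 ± 0.05, p = 1.62e-06), and Kif21b, with 42, 42 and 35 against 104, 119 and 128 counts (−0.98 ± 0.15, p = 0.000239). Kif4 (0.37 ± 0.05, p = 0.000138), Kif18a (0.34 ± 0.06, p = 0.00057), Kif15 (0.33 ± 0.04, p = 4.49e-05) and Kif11 (0.22 ± 0.03, p = 0.000112) were higher. With no scaling beyond library size, which moved the median of all genes from 0.00688 to −0.307, none of 36 members was higher and 25 were lower. Of the 14347 genes, 1399 were higher and 7657 lower without that scaling. Kif11 then was at −0.09, from 1861, 1882 and 1973 against 2455, 2425 and 2440 counts. The mitotic class had 6 higher and 4 lower of 13, the transport class 2 higher and 7 lower of 14 and the third class 0 higher and 4 lower of 8, all relative to that scaling.

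Several values rest on how reads were shared among models. Kif11, Kif15, Kif20b, Kif23, Kifc5b, Kif3b, Kif3c, Kif5a, Kif13a, Kif13b and Kifc2 had 1 transcript model each. In G1 cells the largest share of Kifc1 was carried by a model of 698 bases (47.07% of its TPM), and Kif14 was led by a processed transcript of 280 bases (24.54%), so that TPM of these genes lean on short models. Kif1c was led in G1 cells by a model of 5168 bases (39.02%) and at 0 h and 72 h by one of 1943 bases (49.25% and 44.17%), so that its leading model was the same at both ends of the time course. Pseudogenes of Kif22, Kif4 and the Kifc5 copies can share reads with these genes, and their values are uncertain to that extent.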

How the data were processed

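TPM per transcript was computed by the authors with sailfish on GENCODE vM9 without use of strand after trimming of adapters, and was deposited per cell; a further deposited table used gene models merged with transcripts assembled by HISAT2 (2.0.1) and Cufflinks (2.2.1), from which the authors had removed outlying cells. Estimated counts per transcript, from an equal number of reads a library, were deposited by the authors for the libraries from RNA, and 8 columns of that table belong to no sample used here and were left out. The submitters' processing notes also name Bowtie2 2.2.6 and eXpress 1.5.1.

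TPM and estimated counts were summed per gene, and estimated counts were rounded for tests. The members and gene lists were chosen with earlier results of these data known. All members were described by class, those with a mean of at least 1 TPM over the groups with values, and from other lists the counts and the 2 to 4 genes with the largest change. Cells of a sort, culture or chip are not replicates, so phases, times and C1 cells are given by mean, SD and share of cells (exact binomial 95% intervals, which cover counting error only), with folds of mean TPM + 1 counted from 2-fold on and without a test.

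Plate means of ES and PrE cells (n = 4 plates) were compared with limma (3.58.1) on log2(TPM + 1) for genes with a mean of at least 1 TPM. Folds on that scale understate changes of low genes. Libraries were compared with edgeR's quasi-likelihood test (4.0.16, TMM scaling) after its filter on low counts. DESeq2 (1.42.0) served as an alternative. P-values were adjusted by Benjamini-Hochberg over all genes tested, with a threshold of 0.05. All tests were two-sided, and the scripts were tested on simulated data. Cells of few detected transcripts were those more than 1.5 interquartile ranges below the lower quartile of their plate and type. Plates pair ES with PrE cells by label, and deviations of the same plate correlated at 0.0657 (B1), 0.032 (B2), 0.0829 (E1) and 0.0577 (E2), and at 0.131, 0.0744, 0.145 and 0.102 without cells of few transcripts. Other alternatives were other pseudocounts, filters, medians, protein-coding transcripts, the replicate block and leaving out each plate or library. The PrE bulk libraries and other amounts of RNA were not analysed here. R 4.3.3 and Python 3.11.15 were used.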

Additional observations from a re-analysis of the deposited data

Results flagged for a closer look

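Of 158 groups of 4 to 10 values of single members, 19 held a value far from the others by Dixon's criterion, which chance gives in about 1 in 20 groups. Among 66 groups of 4 plate means 7 did. The highest were Kif1c in ES cells at 51.7 TPM (plate B2), Kif3b in ES cells at 2.36 TPM (E1), Kif13a in PrE cells at 35.4 TPM (B2) and Kif21b in PrE cells at 18.3 TPM (B1). The lowest were Kif14 at 6.55 TPM, Kif5c at 3.2 TPM and Kifc2 at 0.403 TPM, all in PrE cells. For Kif1c, Kif13a and Kif21b, 1 cell carried 90.1%, 86% and 73.69% of the summed TPM, and those of Kif1c and Kif13a had 69 and 58 detected transcripts. The cell of Kif21b had 27031 detected transcripts.

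Among 28 groups of SMART-Seq v4 libraries 6 held such a value, all of them the highest per-length TPM of the 4 libraries. They were Kif14 at 40.2 TPM, Kifc5b at 1.24 TPM, Kif3b at 3.06 TPM, Kif5c at 0.218 TPM, Kif16b at 9.7 TPM and Kifc3 at 5.14 TPM. All of these genes but Kif14 were at 0 in 3 of the 4 libraries, which by itself sets the highest apart whatever its value, and Kif14 was at 0 in 2, so that the count of 6 cannot be read against 1 in 20.

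Among 64 groups of 9 wells 6 did, each with the highest well apart. Over wells of 10 pg of RNA these were Kif14 at 32.3 TPM, Kif22 at 88.3 TPM, Kif3a at 15.4 TPM and Kif26a at 5.55 TPM. Over wells of G1 lysate they were Kifc1 at 41.6 TPM and Kif26a at 3.66 TPM.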

How the results depend on the processing

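Of the counts of genes or members under the alternatives, 181 stayed within 1.5 times of their value and 45 did not. Of the values of single members, 2327 counted as unchanged, 46 tested values newly passed the threshold, 47 no longer passed it and 8 reversed. Values without a test counted as unchanged when they moved by less than their SD over cells. This held on whichever side of 2-fold they lay, and 2 moved by more. Tested values counted as unchanged when they stayed on the same side of the threshold, with direction compared only where a call was made. With medians over cells, 8 members were 2-fold higher in S than in G1 (against 1.665% of genes) and 1 was higher at 24 h (Kif18b, against 11%). By medians 2 were lower at 48 h (against 11.37%) and 6 at 72 h (against 14.16%). With protein-coding transcripts alone 4 were higher in S than in G1 (against 0.3759%). With a filter at 0.1 TPM 1 member was lower at 12 h (against 3.382% of genes) and 2 at 48 h (against 6.788%). Without cells of few transcripts 1 was higher at 24 h (Kif18b, against 9.896%). With the merged gene models 1 was higher (Kif18b) and 0 lower at 24 h, against 9.997% and 4.792% of genes. At 48 h 1 was higher (Kif1c) and 0 lower, against 14.49% and 8.087%, and at 72 h 1 higher (Kif1c) and 1 lower (Kif13b), against 14.1% and 10.72%. For RamDA-seq against SMART-Seq v4 (2 members higher and 1 lower, 934 genes higher and 832 lower), DESeq2 gave 5 members higher, 1975 genes higher and 1573 lower, RLE factors 4 members higher, no scaling 2 members lower and 1793 genes lower, and no filter 0 members and 360 genes higher. For rdRNA-seq against paRNA-seq (3420 genes higher and 3737 lower), no scaling gave 0 members higher and 25 lower, 1399 genes higher and 7657 lower, and reversed Kif20a (−0.0452), Kif5b (−0.21), Kif11 (−0.0900), Kif20b (−0.15), Kif22 (−0.20), Kif1bp (−0.0919), Kif16b (−0.29) and Kif14 (−0.28). The cause of these shifts was not tested.

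With the plate as a block, 11 members were higher and 7 lower (5915 and 4245 genes), and with cells of few transcripts also left out, an alternative chosen after seeing the data, 12 and 10 (6139 and 4992 genes). Library numbers are shared only as numbers (correlations of −0.0252 to 0.0238). As a block they gave 0 members higher and 0 lower from 10 pg (145 and 189 genes), and 9 and 15 from 1 µg (3349 and 3659 genes). Leaving out each library from 10 pg in turn gave 0 to 4 members higher and 0 to 1 lower, 192 to 1180 genes higher and 371 to 802 lower; members higher were 0 without any RamDA-seq library and 4 without SMART-Seq v4 library 1, 2 or 3, and members lower were 0 without RamDA-seq library 1 or 3. Leaving out each plate, also chosen after seeing the data where cells of few transcripts were dropped, gave 10 to 14 members higher and 6 to 8 lower. In the same settings 31.69 to 34.31% of genes were higher and 20.2 to 27% lower.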
